A study of Mus musculus with 8 samples.

Results

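Prostaglandin synthesis and reception was followed through 10 genes named for it (Ptgs1, Ptgs2, Ptges, Ptges2, Ptger1, Ptger3, Ptger4, Pla2g4a, Hpgd and Ptgis) in the mouse kidney cell line IMCD3, which was established from collecting ducts of the inner medulla. A gene was taken as a member when a non-control probe of the array carried its name or an accession that leads to its current symbol. Of the 10 genes, 9 had at least 1 probe (15 probes in all), out of 27597 genes with a probe, and 5 gave signal well above background (Pla2g4a, Ptgs1, Ptgs2, Ptges2 and Ptger4) and so were among the 16080 genes tested. Ptges, Ptger3, Hpgd and Ptgis were not well above background on any array in either group, and Ptger1 was not analysed here because no probe was named for it.

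Both groups are IMCD3 cells, and the labels name no genetic change or added agent in either. Starved cells spent 48 h in medium without fetal calf serum, a treatment given to make them form cilia; unstarved cells grew in medium with 10% serum, were split 1:10 on the day before collection and were still subconfluent. Serum and cell density therefore differ together and cannot be told apart. RNA was hybridised in starved and unstarved pairs on 4 Agilent 2-colour arrays, which gives 8 samples, 4 in each group, from 2 replicates that the series text calls biological. Arrays 1 and 3 hold replicate 1, with the starved RNA in Cy5, and arrays 2 and 4 hold replicate 2, with the starved RNA in Cy3, so that replicate and dye orientation cannot be told apart. The question, as the title places it, is what changes when the cells are brought to form cilia, within a search for targets of FOXJ1, a transcription factor of motile cilia.

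Prostaglandins are made on demand. Cytosolic phospholipase A2 releases arachidonic acid from membranes, a cyclooxygenase turns it into prostaglandin H2, and terminal synthases turn that into prostaglandin E2, D2, F2alpha, prostacyclin or thromboxane, which act on G protein-coupled receptors at the cell surface before being taken up and oxidised. In the collecting duct prostaglandin E2 is known for opposing vasopressin and for limiting the reabsorption of salt and water, and cyclooxygenase 1 is regarded as the constitutive and cyclooxygenase 2 as the inducible form.

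The promoters of the 3 genes that differed between the groups are shown because all 3 results concern transcript levels and the genes' start regions differ in composition. Each run covers 250 bases before and 30 bases after the RefSeq start on build GRCm38.p6, 5′ to 3′ on the gene's strand, and capitals mark every match to a searched motif on either strand. The windows are chr1:150099781-150100060 on the + strand for Ptgs2, chr2:36230176-36230455 on the + strand for Ptgs1 and chr15:5244158-5244437 on the - strand for Ptger4.
Ptgs2: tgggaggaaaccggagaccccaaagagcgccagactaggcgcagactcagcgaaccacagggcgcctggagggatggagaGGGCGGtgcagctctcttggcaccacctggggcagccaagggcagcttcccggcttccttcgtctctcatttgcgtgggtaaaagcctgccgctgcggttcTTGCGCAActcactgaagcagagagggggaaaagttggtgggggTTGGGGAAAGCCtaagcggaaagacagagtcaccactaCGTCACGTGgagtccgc
Ptgs1: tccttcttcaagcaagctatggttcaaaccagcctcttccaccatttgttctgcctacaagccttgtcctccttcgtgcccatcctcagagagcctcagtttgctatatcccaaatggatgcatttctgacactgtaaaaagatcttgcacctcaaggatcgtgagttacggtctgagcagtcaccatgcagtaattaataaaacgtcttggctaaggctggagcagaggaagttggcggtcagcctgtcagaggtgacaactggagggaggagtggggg
Ptger4: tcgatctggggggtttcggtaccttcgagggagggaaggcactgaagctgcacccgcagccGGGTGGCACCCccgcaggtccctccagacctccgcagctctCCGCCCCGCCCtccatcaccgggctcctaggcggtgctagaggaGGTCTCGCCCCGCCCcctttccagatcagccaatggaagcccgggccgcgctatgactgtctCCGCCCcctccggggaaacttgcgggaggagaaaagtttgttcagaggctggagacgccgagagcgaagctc

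The motifs searched, on both strands, were the cyclic AMP response element TGACGTCA, its first bases TGACG (which lie inside the full element), the AP-1 element TGANTCA, the kappaB element (GGG and CC with any 5 bases between them), the E-box CACGTG, the C/EBP element TTNNGNAA, the TATA element TATAAA and the GC box GGGCGG. The Ptgs2 window held a GC box at positions -170 to -165 from the start, C/EBP matches at -69 to -62 and -25 to -18, and a kappaB match at -23 to -14 that overlaps the latter. Just past the RefSeq start it held TGACG on the minus strand at 14 to 18, overlapping an E-box at 17 to 22. All positions count from the RefSeq start, and whether transcription begins there in these cells was not tested. Over 32851 promoters of the same length, 48.9% held a kappaB match, 39.3% a C/EBP match, 34.7% a GC box, 19.9% TGACG and 6.79% an E-box. The Ptger4 window held 4 GC boxes and 3 kappaB matches, some overlapping, with a GC content of 66.8%. The Ptgs1 window held 0 matches to any of the 8 motifs, at a GC content of 49.6%. The full response element (1.74% of all promoters), the AP-1 element (7.46%) and TATA (13.1%) were in none of these 3 windows.

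The 2 cyclooxygenases moved in opposite directions. In starved cells the transcript of Ptgs2, the inducible cyclooxygenase, fell to a level 3.99-fold lower than in unstarved cells, while that of Ptgs1, the constitutive form, rose 1.5-fold and that of Ptger4, the EP4 receptor for prostaglandin E2, rose 1.55-fold. Pla2g4a, the cytosolic phospholipase A2, and Ptges2, a membrane-associated prostaglandin E synthase, did not pass the test. Of the 5 members tested, 2 were higher and 1 lower (limma, adjusted p below 0.05), against 18.1% of all tested genes called higher, 13.4% called lower and 31.4% called in either direction. Of the 7 member probes tested 2 were higher and 2 lower, against 16.4% and 13.2% of all tested probes (29.5% in either direction). With so few members these counts are read against the background as a description only. Levels below are log2 intensities of single samples after normalization, ratios are log2 of starved over unstarved with limma's moderated standard error (2 replicates). Adjusted p-values come from limma, with Benjamini-Hochberg adjustment over all 16080 genes.

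**Figure D1:**
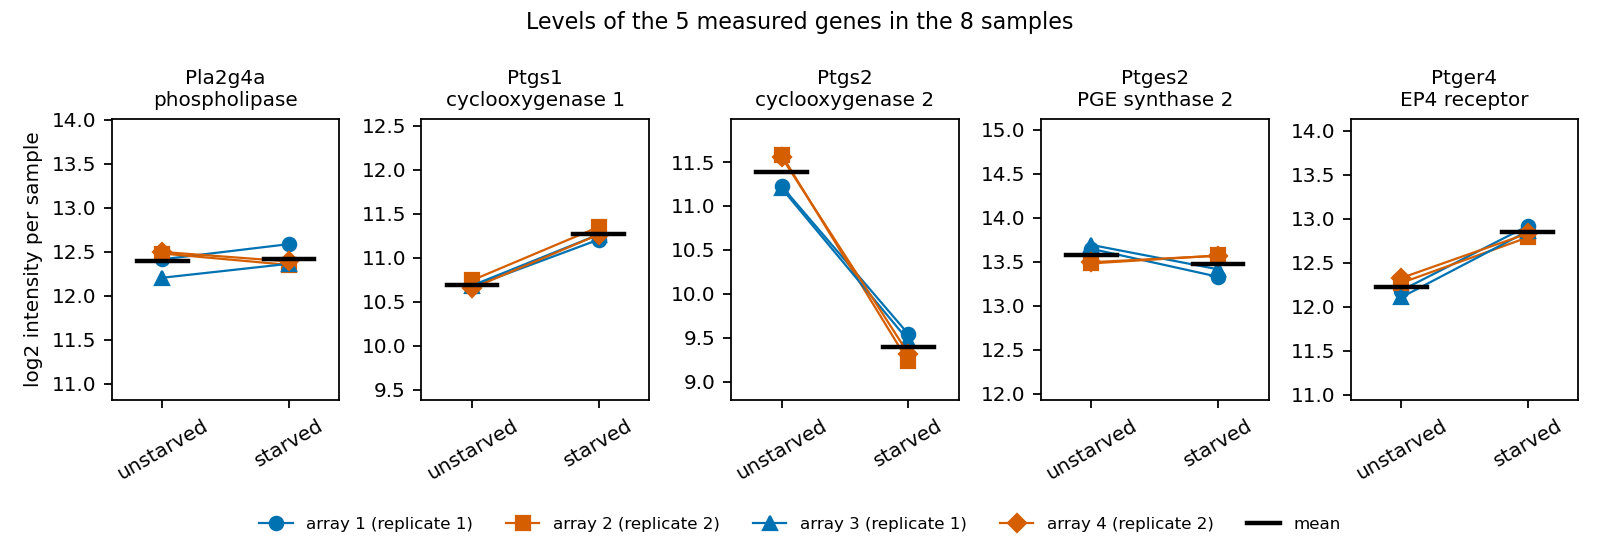
Log2 intensity of the 5 measured genes in unstarved and starved samples; each marker is a sample, a line joins the samples of an array, colour gives the replicate, black bars are means and every panel spans the same number of log2 units. All 4 starved samples lie below all 4 unstarved samples for Ptgs2 and above them for Ptgs1 and Ptger4, while the groups overlap for Pla2g4a and Ptges2.

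Upstream of the cyclooxygenases, Pla2g4a releases the arachidonic acid that the pathway starts from. Its log2 level was 12.41, 12.48, 12.20 and 12.50 in the unstarved samples of arrays 1 to 4 and 12.59, 12.35, 12.36 and 12.39 in the starved samples. The groups overlapped, and the starved sample of array 1 stood above the other starved samples. The log2 ratio was positive on both arrays of replicate 1 (0.17 and 0.16) and negative on both arrays of replicate 2 (-0.13 and -0.11), with a mean of 0.02 ± 0.13 (SE, n = 2, limma adjusted p = 0.909) and a 95% confidence interval from -0.25 to 0.29. The sign of this mean turned with median centring of the arrays in place of loess (-0.070) and with the mean of both its probes (-0.010).

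The second Pla2g4a probe is 60 bases long with an open reading frame through it, and its mm8 coordinates span 10485 bases (chr1:151592382-151602866, minus strand), so it reads across at least 1 splice junction, whereas the first lies in a single block (chr1:151592221-151592280). It is shown because it reads spliced transcript.
Pla2g4a junction probe: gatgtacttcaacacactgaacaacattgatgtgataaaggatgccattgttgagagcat
It gave -0.04 ± 0.15 (SE, n = 2, limma adjusted p = 0.850 over all probes), with 0.24 and 0.28 on the arrays of replicate 1 and -0.34 and -0.35 on those of replicate 2. Both probes therefore split by replicate in the same way and neither passed the test.

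Ptgs1 encodes cyclooxygenase 1, which makes prostaglandin H2 in resting cells. Its log2 level was 10.67, 10.74, 10.68 and 10.65 in the unstarved samples of arrays 1 to 4 and 11.21, 11.35, 11.26 and 11.26 in the starved samples. Every starved sample lay above every unstarved sample, and within each group the samples differed by less than the gap between the groups. The log2 ratio was 0.58 ± 0.12 (SE, n = 2, limma adjusted p = 0.00170), with 0.56 in replicate 1 and 0.61 in replicate 2, the closest pair of replicate values among the members. It lay above the ratios of 91.4% of tested genes. With median centring in place of loess the ratio was 0.54 and the adjusted p 1.00, so the call was lost there.

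Ptgs2 encodes cyclooxygenase 2, which growth factors, cytokines and serum are known to induce. Its log2 level was 11.22, 11.58, 11.20 and 11.55 in the unstarved samples of arrays 1 to 4, and 9.54, 9.23, 9.47 and 9.32 in the starved samples. The groups were far apart: the mean was 11.39 ± 0.25 (SD, n = 2 replicates) in unstarved and 9.39 ± 0.16 in starved cells. The log2 ratio was -2.0 ± 0.14 (SE, n = 2, limma adjusted p = 2.65e-08), with a 95% confidence interval from -2.30 to -1.69. Only 0.267% of tested genes had a lower ratio. At least 2-fold and called were 4.37% of all tested genes, and Ptgs2 was the 1 member among them; of all tested probes the share was 3.65%, and both Ptgs2 probes were among them.

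The size of the Ptgs2 fall differed between the replicates. The log2 ratio was -1.68 and -1.73 on the arrays of replicate 1 and -2.35 and -2.23 on those of replicate 2. Replicates differed by more than the arrays within a replicate, and since each replicate has its own dye orientation, the share of dye in that difference cannot be told apart from that of culture.

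A second Ptgs2 probe was printed at 10 spots on each array. It lies downstream (chr1:151869832-151869891 in mm8, + strand) of the first (chr1:151869504-151869563). Its ratio was -1.89 ± 0.15 (SE, n = 2, limma adjusted p = 3.83e-08 over all probes). Its array means were -1.55 and -1.57 in replicate 1 and -2.23 and -2.19 in replicate 2. Over the 10 spots the ratio ranged from -1.63 to -1.45 on array 1, from -2.28 to -2.18 on array 2, from -1.64 to -1.52 on array 3 and from -2.24 to -2.14 on array 4. The spots of replicate 1 and those of replicate 2 did not overlap, and the spot SD was at most 0.0589 on any array, so the difference between replicates was larger than the spread between spots of an array. Signal over local background was 12.6 to 76.7 for the first probe, so the fall was measured well clear of background in both groups.

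**Figure D2:**
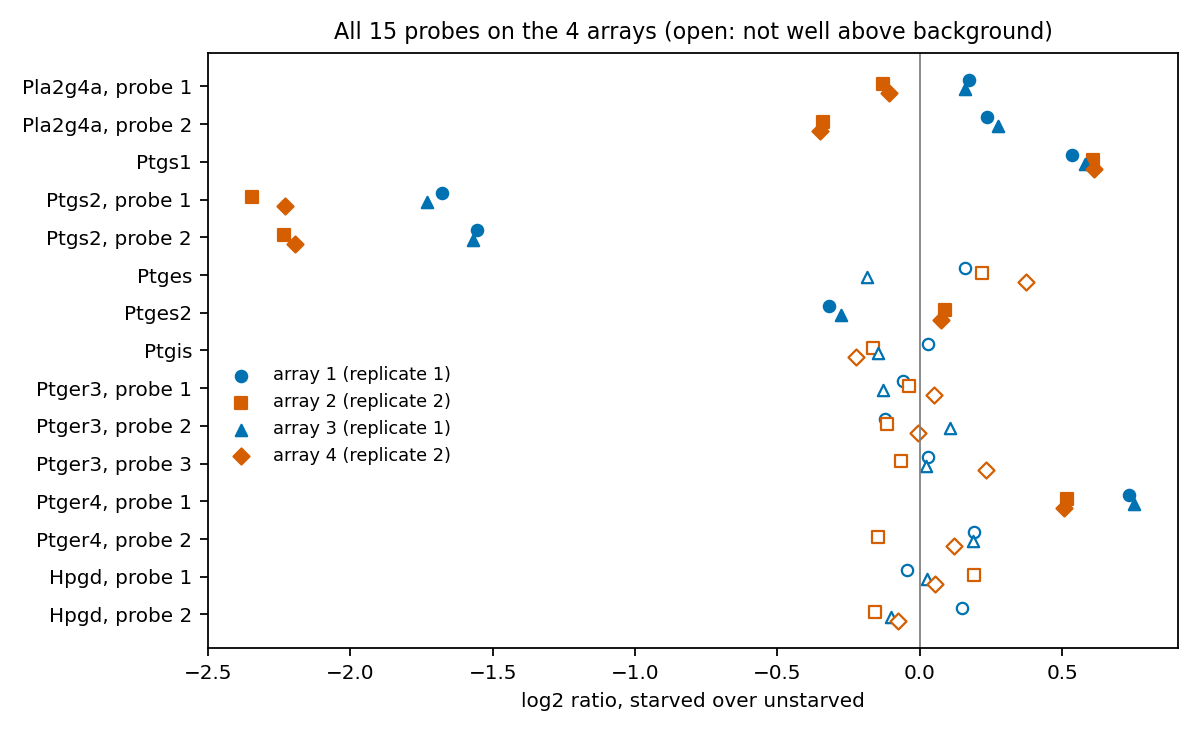
Log2 ratio of starved over unstarved on each of the 4 arrays for all 15 probes; filled markers are probes well above background, open markers are probes that were not, and colour gives the replicate. Both Ptgs2 probes lie between -1.55 and -2.35 with replicate 2 the lower, Ptgs1 and the brighter Ptger4 probe lie above 0 on all arrays, and the Ptges2 and Pla2g4a probes fall on either side of 0 according to replicate.

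The genes whose ratios over the 4 arrays lay nearest to those of Ptgs2 (Euclidean distance, 16080 genes) were Cyp26b1 (distance 0.243, mean log2 ratio -2.06), Sdcbp2 (0.265, -2.03), the predicted gene LOC627626 (0.286, -1.86), Actc1, cardiac alpha actin (0.317, -2.10), and Cyp1b1 (0.323, -1.84). Cyp26b1 encodes a retinoic acid hydroxylase, Cyp1b1 a cytochrome P450 and Sdcbp2 a syntenin. All 5 were lower on the arrays of replicate 2 than on those of replicate 1, as Ptgs2 was. The genes were picked by nearness over these same 4 ratios, so a shared replicate pattern follows largely from the choice. The arrays of a replicate share RNA and dye orientation, so this is a description of 4 linked values.

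Of the terminal synthases, Ptges2 makes prostaglandin E2 without needing induction. Its log2 level was 13.65, 13.48, 13.69 and 13.49 in the unstarved samples of arrays 1 to 4 and 13.33, 13.57, 13.41 and 13.57 in the starved samples. The groups overlapped. The log2 ratio was -0.32 and -0.28 on the arrays of replicate 1 and 0.09 and 0.07 on those of replicate 2, with a mean of -0.11 ± 0.13 (SE, n = 2, limma adjusted p = 0.577) and a 95% confidence interval from -0.39 to 0.17. Ptges2 passed when arrays of opposite dye orientation were combined into 1 replicate or a dye term was fitted, at the same mean of -0.11 (adjusted p from 7.67e-04 to 0.00266), in fits that called from 87.7% to 88.9% of all genes.

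Ptges, the inducible microsomal prostaglandin E synthase, and Ptgis, the prostacyclin synthase, were not well above background on any array, at log2 levels of 6.58 to 7.08 and 6.14 to 6.56. The lowest level that passed as well above background lay between 6.61 and 7.01 depending on the sample. Signal over local background was 2.01 to 5.37 for Ptges and 1.37 to 3.81 for Ptgis. No ratio is given for either.

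Ptger4 encodes the EP4 receptor, which binds prostaglandin E2 and raises cyclic AMP. Its log2 level was 12.19, 12.27, 12.11 and 12.33 in the unstarved samples of arrays 1 to 4 and 12.92, 12.79, 12.86 and 12.83 in the starved samples. The groups did not overlap. The log2 ratio was 0.63 ± 0.13 (SE, n = 2, limma adjusted p = 0.00117), with 0.74 in replicate 1 and 0.51 in replicate 2. It lay above the ratios of 92.6% of tested genes. With median centring in place of loess the ratio was 0.53 and the adjusted p 1.00, so this call too was lost there.

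The second probe named for Ptger4, which matches a separate cDNA farther along the same strand of chromosome 15 (chr15:5153890-5153949 in mm8; the first lies at chr15:5181634-5181693), was not well above background. The 3 probes of Ptger3, the EP3 receptor, which lowers cyclic AMP, were not well above background on any array (signal over local background 1.37 to 4.52), nor were the 2 probes of Hpgd, the 15-hydroxyprostaglandin dehydrogenase that begins breakdown (1.33 to 4.43). A transcript too scarce for this array to measure is not thereby absent. On all 4 arrays 3 of the 5 tested members had 1 sign (Ptgs1, Ptgs2 and Ptger4), against 69.3% of tested genes. Among the 7 tested member probes 4 had 1 sign, against 68.6% of tested probes.

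**Figure D3:**
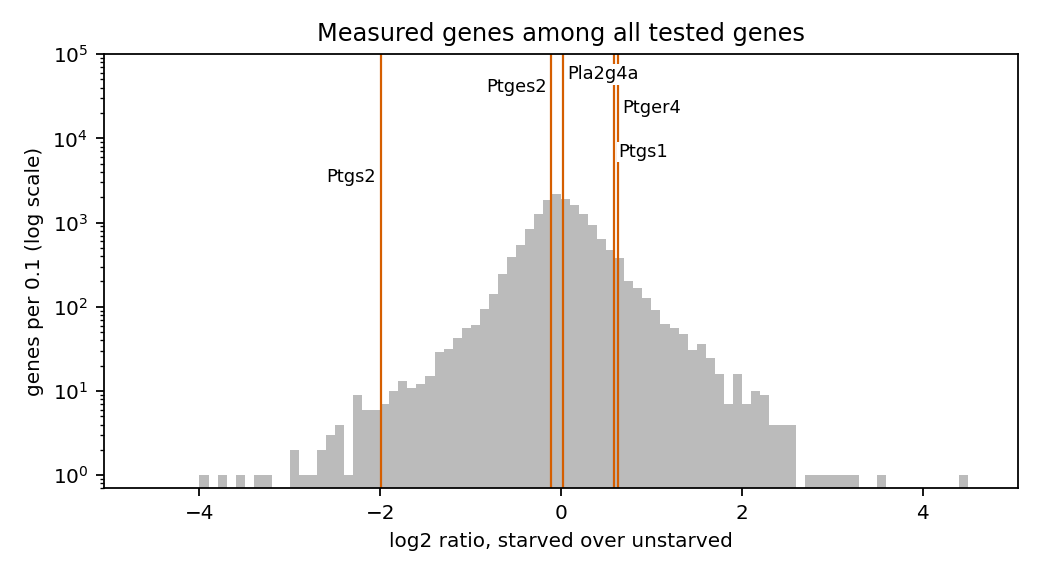
Distribution of the log2 ratio of starved over unstarved over the 16080 tested genes, on a log count axis, with a vertical line at each measured member. Ptgs2 at -2.0 lies in the lower tail, Ptgs1 and Ptger4 at 0.58 and 0.63 on the upper shoulder and Ptges2 and Pla2g4a near the centre.

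The rest of the eicosanoid pathway was described by 65 further genes, of which 64 were on the array and 38 were measured. In starved cells 8 of these were higher, 5 were lower, 25 did not pass, and a further 26 gave no signal well above background. The median log2 ratio of the 38 was -0.08, against 0.0053 for all tested genes. The 13 called are 8 higher and 5 lower, where 18.1% and 13.4% of all tested genes were called, so the counts are close to the background. With the filter on dim probes applied in both groups, 6 were higher and 4 lower, since Hpgds, Akr1b7 and Ephx2 entered the test only through the group in which they were high.

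The largest measured rise was in a synthase of prostaglandin D2. Ptgds, the lipocalin-type prostaglandin D synthase, rose 3.56-fold (log2 ratio 1.83 ± 0.13 SE, n = 2, limma adjusted p = 2.08e-08; 1.98 and 1.68 in the 2 replicates). Its log2 level was 9.49, 9.58, 9.26 and 9.65 in the unstarved samples of arrays 1 to 4 and 11.41, 11.28, 11.30 and 11.32 in the starved samples, with no overlap. Hpgds, the haematopoietic prostaglandin D synthase, was not well above background in any unstarved sample and was so in all 4 starved samples, so its rise is given as at least 2.23-fold (limma adjusted p = 9.50e-08; mean log2 level 6.49 in unstarved and 8.07 in starved samples). The bound sets the starved mean against, per array, the higher of the gene's own unstarved level and the lowest level well above background there. Of the 9 synthases measured, 4 were called higher and 0 lower, against 18.1% and 13.4% of all tested genes. Hpgds and Akr1b7 passed the filter through starved samples alone. The count of 4 and the adjusted p of both genes are therefore a description only. Besides Ptgds and Hpgds, those called were Akr1b7, an aldo-keto reductase that can make prostaglandin F2alpha (0.89 ± 0.12, limma adjusted p = 3.68e-05, well above background in 1 of 4 unstarved samples), and Cbr1, a carbonyl reductase (0.39, adjusted p = 0.0224). Ptges3, the cytosolic prostaglandin E synthase, had a ratio of -0.32 and did not pass (adjusted p = 0.0604). With the scanner's processed signals in place of normexp and loess, the Akr1b7 ratio was 1.84. Whether transcripts of its relatives share the signal of the Akr1b7 probe was not tested. In unstarved samples the mean log2 level was 16.12 for the relative Akr1b8, 16.71 for Akr1b3 and 6.89 for the Akr1b7 probe.

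Prostanoid receptors other than the members showed no call, where 31.4% of all tested genes were called in either direction. The 4 genes of this list that were measured were Ptgdr2, a receptor for prostaglandin D2, Ptgir, the prostacyclin receptor, Tbxa2r, the thromboxane receptor, and Ptgfrn, a regulator of the prostaglandin F receptor. They had log2 ratios from -0.09 to 0.10 and did not pass the test, and Ptger2, Ptgdr and Ptgfr were not well above background. A second Ptgfrn probe gave -0.23, against 0.04 for the probe that stands for the gene. Of the prostaglandin E2 receptors Ptger2, Ptger3 and Ptger4, the last alone gave measurable signal. Of 18 other phospholipase A2 genes on the array, 7 were measured and 0 passed, against 31.4% of all tested genes called in either direction. Their ratios ran from -0.27 for Plaat3 to 0.33 for Pla2g4b (limma adjusted p = 0.0525). With so few genes in either list the counts are a description only. 

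Of 6 genes of transport and breakdown, 2 were lower and 1 higher, against 13.4% and 18.1% of all tested genes. Abcc4, which pumps prostaglandins out of cells, fell 1.86-fold (log2 ratio -0.90 ± 0.13 SE, n = 2, limma adjusted p = 5.53e-05), with -0.74 in replicate 1 and -1.05 in replicate 2. Slco2a1, the prostaglandin transporter, fell 1.39-fold (-0.48 ± 0.12, limma adjusted p = 0.00676). Zadh2, which encodes prostaglandin reductase 3, rose 1.78-fold (0.83 ± 0.13, limma adjusted p = 1.75e-04). Slco3a1, Ptgr1 and Ptgr2 did not pass.

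The other branches of arachidonic acid metabolism were represented by 12 measured genes. Of 7 lipoxygenase and leukotriene genes, Alox5ap, which presents arachidonic acid to 5-lipoxygenase, was higher (0.54 ± 0.12, limma adjusted p = 0.00356), as was Aloxe3 (0.35, adjusted p = 0.0370), and 5 did not pass. The 2 called higher stand against 18.1% of all tested genes. Of 5 epoxygenase and hydroxylase genes measured, 3 were called lower, against 13.4% of all tested genes. These were Cyp4a12a, a fatty acid omega-hydroxylase that makes 20-HETE (-1.74 ± 0.12, limma adjusted p = 2.30e-08), Cyp4a10 (-0.95 ± 0.13, adjusted p = 4.11e-05) and Ephx2, the soluble epoxide hydrolase that breaks down epoxyeicosatrienoic acids (-1.13 ± 0.12, adjusted p = 2.93e-06; well above background in 3 of 4 starved samples). Ephx2 passed the filter through unstarved samples alone, so its adjusted p and the count of 3 called lower are a description only. With the scanner's processed signals the ratio was -1.91 for Ephx2 and 0.76 for Aloxe3. Ephx1, the microsomal epoxide hydrolase, was higher (0.57 ± 0.14, adjusted p = 0.00412). Cyp4a12a was read by 2 probes at -1.74 and -0.96, and the near-identical Cyp4a copies may share signal. With median centring in place of loess 2 of all 38 other pathway genes were called higher and 1 lower, and Alox5ap, Aloxe3, Cyp4a10, Ephx1 and Ephx2 were not called. Alox5ap and Aloxe3 also lost their calls with the replicate as a random block (adjusted p = 0.101 and 0.190).

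**Figure D4:**
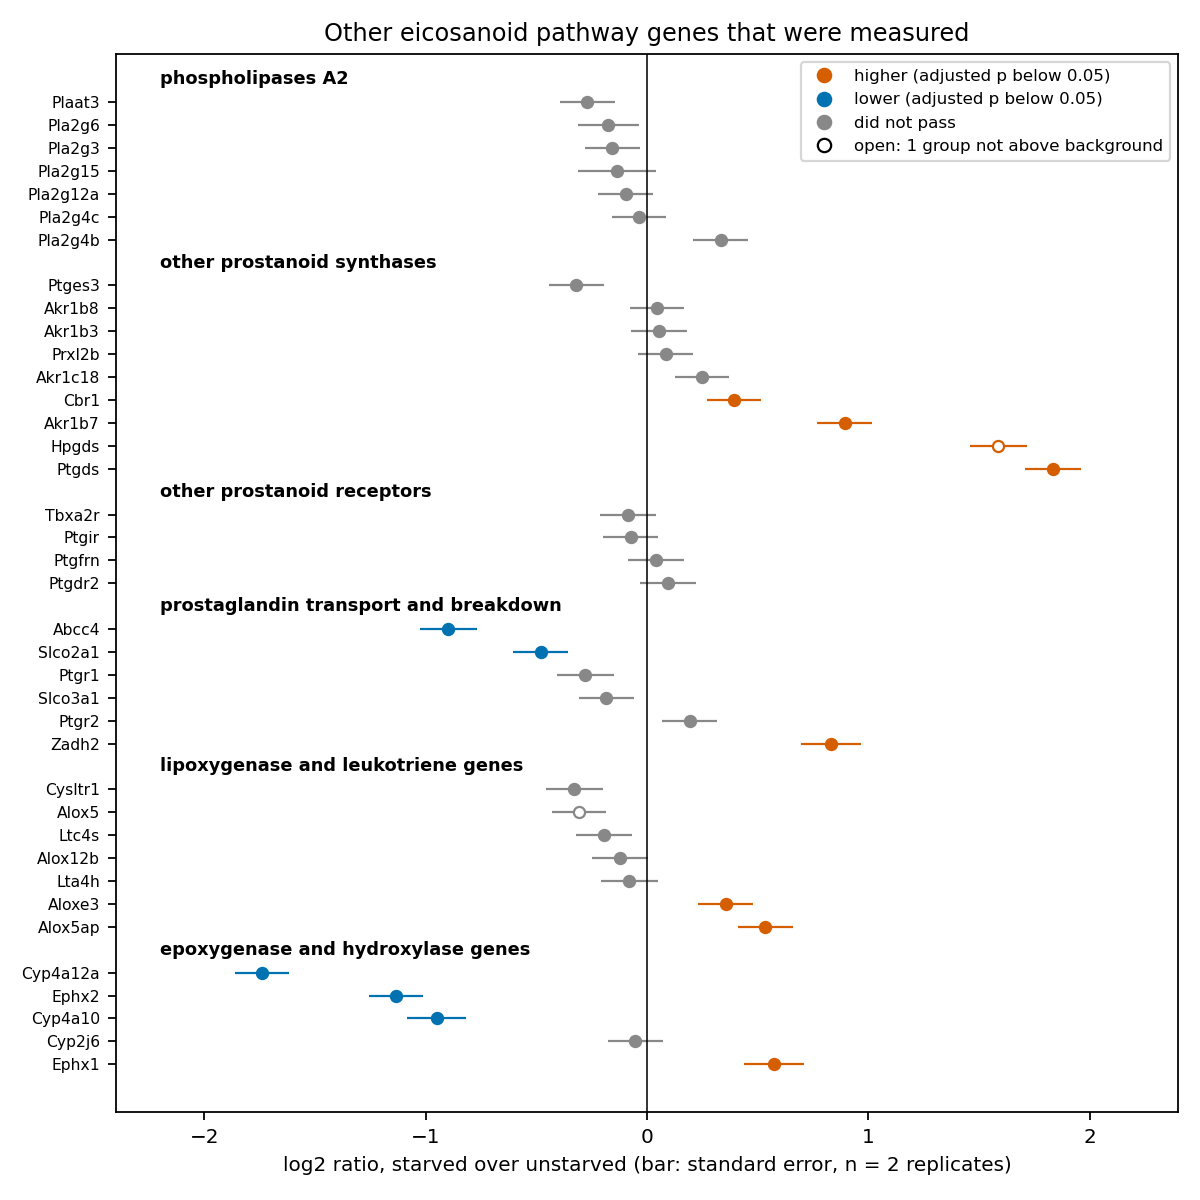
Log2 ratio of starved over unstarved, with standard error (n = 2 replicates), of the 38 other eicosanoid pathway genes that were measured, grouped by role; orange, blue and grey mark genes called higher, called lower and not passed. Open markers are genes that were not well above background in any sample of 1 group, for which the ratio is not a measured fold. Ptgds (1.83) lies highest and Cyp4a12a (-1.74) lowest.

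The cells were checked against markers of their labelled type and of others. The counts called in each list stand against 18.1% of all tested genes called higher and 13.4% called lower (31.4% in either direction). Avpr2, Gata2, Postn and Ptprc passed the filter through 1 group alone, so the counts are a description only. Of 21 collecting duct and epithelial markers 18 were measured, of which 6 were higher and 4 lower in starved cells. Aqp4, Elf5 and Scnn1b were not well above background. Scnn1g, an epithelial sodium channel subunit, was higher (log2 ratio 2.30) and the keratin Krt7 lower (-1.07), while Aqp2, the vasopressin-regulated water channel, did not pass (-0.19). The summed intensity of this list was 848373 to 908282 in unstarved and 635797 to 751060 in starved samples. Such a sum covers every gene of a list, also those not measured, so the brightest weigh most. In unstarved samples these were Krt8, Krt7, Krt18 and Krt19, at mean log2 levels of 17.81, 17.62, 17.53 and 16.39. Krt7, Krt8 and Krt19 were called lower and Krt18 did not pass, while Avpr2, Scnn1g, Hoxb7, Cdh1, Epcam and Cdh16 were called higher. Of 9 markers of other nephron segments 4 were measured and all 4 were called: Umod (3.21), Aqp1 (1.54) and Lrp2 (0.40) were higher and Cubn (-1.85) lower. Their summed intensity was 11802 to 13138 in unstarved and 17242 to 17798 in starved samples, and Slc12a1, Slc12a3 and Slc34a1 were among those not well above background. All 7 endothelial markers were not well above background. Of 12 fibroblast and interstitial markers 6 were measured and 4 of these were lower in starved cells (Acta2, Col1a1, Postn and Tnc), as Ptgs2 was. The summed intensity of all 12 was 53013 to 60882 in unstarved and 29561 to 30607 in starved samples. This sum mainly follows 1 gene, Acta2, at a mean log2 level of 15.68 in unstarved and 14.77 in starved samples. The next brightest measured gene in unstarved samples was Tnc, at 10.82. The fall of the sum is therefore not a measure of the list as a whole. Pdgfra, Pdgfrb, Thy1, Lum, Dcn and Col3a1 of the same list were not well above background. Of 9 leukocyte markers 6 were measured, with Csf1r (1.44) and Cd14 (0.88) higher and Ptprc (-0.50) lower, and their summed intensity was 8651 to 8986 in unstarved and 16387 to 18831 in starved samples, while Adgre1, Itgam and Lyz2 were not well above background. The part of any of these lists in the results for Ptgs1, Ptgs2 and Ptger4, or for Hpgds, a gene known from leukocytes, was not tested. In a bulk sample fewer cells of a type and less RNA per cell cannot be told apart.

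**Figure D5:**
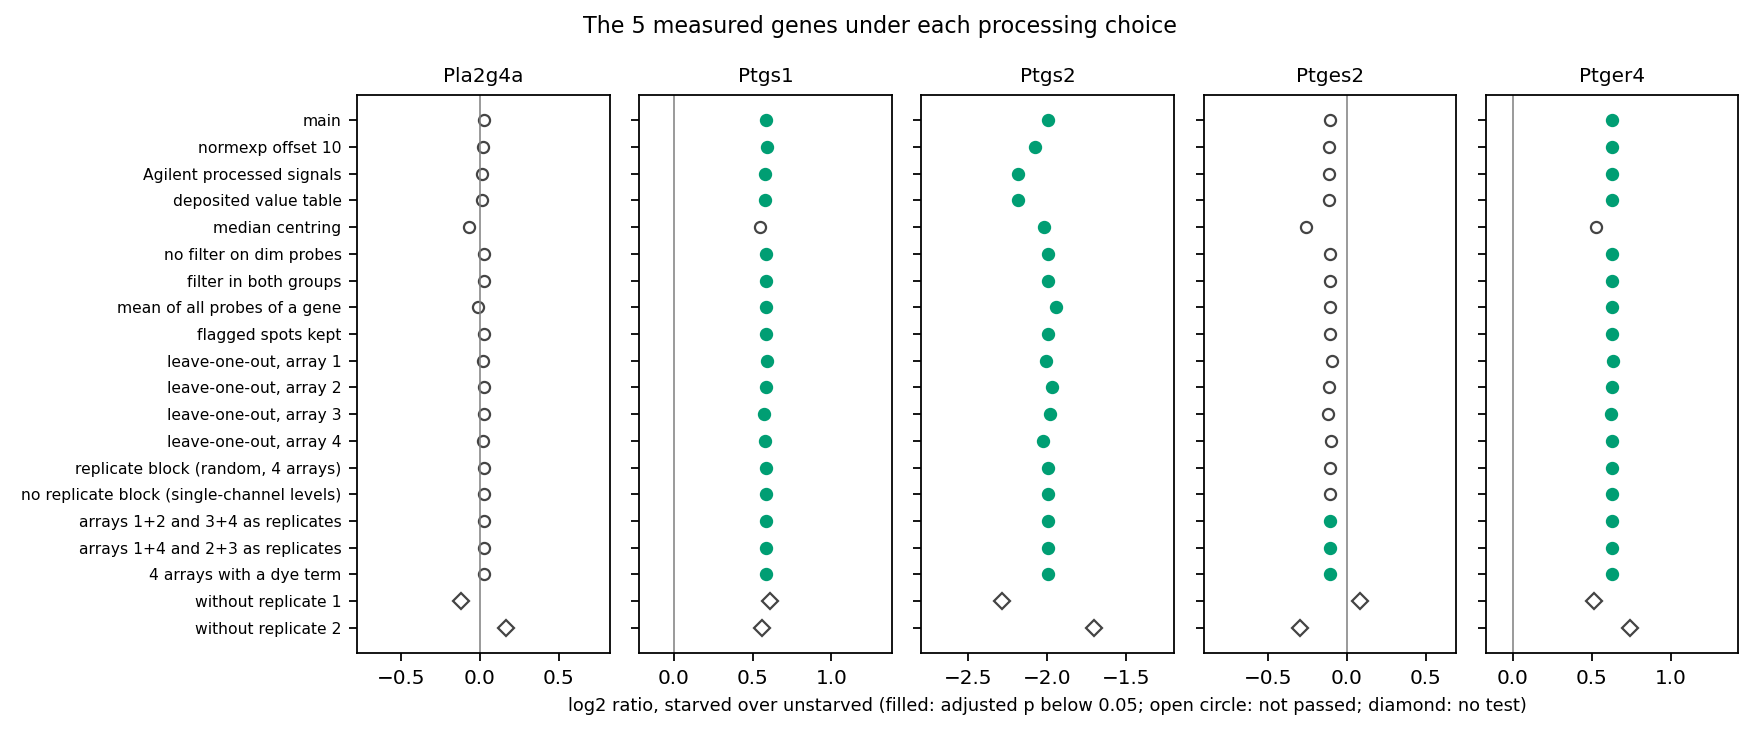
Log2 ratio of starved over unstarved of the 5 measured members under each processing choice and with replicates or arrays left out; filled circles passed the test, open circles did not and diamonds are values from 1 replicate with no test. Ptgs2 lies between -1.70 and -2.29 throughout, and Ptgs1 and Ptger4 stay above 0 but do not pass under median centring.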

How the data were processed

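The deposited scanner files give spot intensity (mean signal and median local background), per the file headers; the submitters' processing notes name Agilent Feature Extraction 9.5.3.1. Both files of a hybridisation were identical in 4 of 4 hybridisations, and each sample was read from the channel of its own dye. The deposited table of linear intensity values, whose scaling and centring are unknown and whose direction follows the dye labels (lowest value 15, column medians 74.7 to 77.1, log ratios correlated at 0.991 or more with the scanner's processed signals), was an alternative. Probe positions follow the build field mm8, per the file headers.

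In limma 3.58.1 (R 4.3.3) normexp (offset 50) removed background, followed by loess within arrays, with 1639 control spots of 45018 per array and 583 flagged spots over the 4 arrays at weight 0; 0 spots were saturated. This left 41174 probes. Names came through RefSeq accessions for 24375 probes, current symbols for 6301 and synonyms for 2426, and 8072 kept their array name. Probes well above background on all 4 arrays of at least 1 group were tested, with the brightest probe standing for a gene. Levels of single samples were taken after Aquantile. Both arrays of each replicate were averaged before lmFit and eBayes were run on the 2 replicate ratios, two-sided, and calls needed an adjusted p below 0.05. Since 1 residual degree of freedom remains, a gene's error draws mainly on the spread pooled over genes (15.0 prior degrees of freedom). The number of replicates, 2, limits the precision.

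Over genes, the correlation of array ratios was 0.991 within a replicate and 0.824 to 0.830 between replicates. The dye swap inside each pair that the series text describes conflicts with the labels, which were followed. The pairing of samples is that of the hybridisation: each ratio sets a starved sample against the unstarved sample of its array. Deviations of same-numbered samples correlated at -0.297, and as these carry opposite dyes this does not test the pairing.

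The members, gene lists and promoter motifs were chosen with earlier results of these data known. Named are all 10 members, up to 3 called genes per list and direction with the largest ratios, the 5 genes most like Ptgs2, and genes making up a count of 5 or fewer; the other markers and pathway genes given were chosen after their values were seen. Lists are described by counts and medians, with no test. A gene not well above background in any sample of 1 group gets a bound in place of a fold. The fit was tested on simulated data. The alternatives changed background correction, source of values, normalization, filters, choice of probe, flagged spots, replicates, arrays, dye and pairing.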

Additional observations from a re-analysis of the deposited data

Results flagged for a closer look

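Levels in single samples were checked for a value far from the others of its group, in 30 groups of 4 samples. Chance flags about 1 in 20 of such groups where the 4 values are independent. Here the arrays of a replicate share RNA, so that rate need not hold. For Pla2g4a the starved sample of array 1 stood at a log2 level of 12.59, above the other starved samples, with a gap of 0.832 of the group's range. For Ptges the starved sample of array 4 stood at 7.08, with a gap of 0.839 of the range, from a probe that was not well above background.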

How the results depend on the processing

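The direction of Ptgs2, Ptgs1 and Ptger4 was kept under all alternatives run, and their calls were kept under all that gave a test except median centring in place of loess, where Ptgs1 (0.54) and Ptger4 (0.53) no longer passed (adjusted p = 1.00 for both) and Ptgs2 did. That setting called 249 genes (133 higher, 116 lower; 5052 in the reported fit), 0 members higher and, of the other pathway genes, 2 higher and 1 lower; Pla2g4a turned to -0.070. The cause was not tested. Pla2g4a also turned to -0.010 with the mean of both its probes. Combining arrays of opposite dye called 14298 genes for arrays 1 with 2 and 3 with 4 (7341 higher, 6957 lower), 14105 for arrays 1 with 4 and 2 with 3 (7253, 6852) and 14211 with a dye term (7333, 6878). In these, 2 members were lower, Ptges2 passing at -0.11, and of the other pathway genes 16 were higher and 20, 21 and 20 lower; by construction such replicates hold the same 2 pairs of RNA. The level difference of Ptgs1 was 0.54 with quantile normalization of all channels, against 0.58. With 1 replicate left out, which leaves no test, the ratio ranged from -2.29 to -1.70 for Ptgs2, 0.56 to 0.61 for Ptgs1, 0.51 to 0.74 for Ptger4, -0.30 to 0.08 for Ptges2 and -0.12 to 0.17 for Pla2g4a. With the replicate as a random block over 4 arrays 5364 genes were called, and without the pairing 5862; no member's call changed (Ptgs2 adjusted p = 3.58e-04 and 1.06e-05). Alox5ap lost its call under the block (adjusted p = 0.101), and Aloxe3 under the block (0.190) and without array 2 (0.0733). Under median centring Ptgds, Hpgds and Cyp4a12a kept their calls, and the other 10 called pathway genes lost them. For Hpgds, which passed the filter through starved samples alone, the call is a description only. The scanner's processed signals gave a ratio of 4.24 for Hpgds, against 1.59, its unstarved level being not above background. Low signal over background limits Ptges, Ptger3, Hpgd and Ptgis.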
